A study of Rattus norvegicus with 36 samples.

Results

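The 8 keratins that separate luminal from basal cells of the mammary gland were followed in rat mammary cancers of different causes: Krt7, Krt8, Krt18 and Krt19 as the luminal set, and Krt5, Krt14, Krt15 and Krt17 as the basal set. They were chosen by symbol. Each had 1 probe set annotated with its symbol alone, so 8 of the 20832 probe sets with a single symbol, and 8 of 14218 symbols, were members. All 8 passed the filter on low intensities and were among the 11773 genes tested.

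Expression had been measured on 36 single-colour arrays of total RNA from female Sprague-Dawley rats, 33 hybridised with mammary cancers and 3 with normal gland. All groups shared a diet with 23.5% corn oil, given from the age of 9 weeks. Treatment began at 7 weeks of age with 1 Gy of whole-body gamma rays, with the alkylating carcinogen MNU (40 mg/kg, by intraperitoneal injection) or the cooked-meat mutagen PhIP (40 mg/kg/day, by gavage), or with radiation followed after 3 days by either chemical. Cancers were labelled by whether their H-ras gene was mutated. Nonmutated cancers came from untreated rats (spontaneous, n = 3) and after radiation (n = 4), MNU (n = 4), PhIP (n = 3), radiation and MNU (n = 4) or radiation and PhIP (n = 4). Mutated cancers came after MNU (n = 5), radiation and MNU (n = 5) and PhIP (n = 1). The 3 normal tissues were from untreated rats. The age at sampling, and whether each array was a different rat, are not given in the sources used here, so p-values measure the spread between these arrays. The single mutated PhIP cancer entered the mean of all cancers and no other test.

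Keratins are the intermediate filament proteins of epithelia. A filament is built from obligate pairs of a type II keratin (here Krt5, Krt7 and Krt8) and a type I keratin (here Krt14, Krt15, Krt17, Krt18 and Krt19). In the mammary duct, the cells that face the lumen carry mainly the simple-epithelial pair Krt8 and Krt18 together with Krt7 and Krt19, while the outer basal and myoepithelial cells carry Krt5 with Krt14, and also Krt17 and Krt15. For this reason keratins are used in pathology to assign a mammary tumour to a luminal or a basal pattern.

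The genes lie in the 2 keratin clusters of the rat genome. In the RefSeq gene table (assembly GRCr8) Krt5, Krt7, Krt8 and Krt18 were on chromosome 7 and Krt14, Krt15, Krt17 and Krt19 on chromosome 10. Krt18 is the type I gene that lies inside the type II cluster, and only 1 gene, not protein-coding, lay between it and its partner Krt8. Krt15 and Krt19, a basal and a luminal keratin, were direct neighbours with 0 genes between them. Krt14 and Krt17 had 2 genes between them, 1 of which was Krt16.

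RefSeq promoter sequence was matched for 3 of the 8 members, Krt5, Krt8 and Krt18, and is shown because these include the luminal pair that varied most closely together and the basal type II keratin. Sequence for Krt7, Krt14, Krt15, Krt17 and Krt19 is not shown. Each line gives the 250 bases before the RefSeq transcription start, 5′ to 3′ on the gene's own strand (GRCr8). The stretches are chr7:134730570-134730819 for Krt5 (minus strand), chr7:135010340-135010589 for Krt8 (minus strand) and chr7:135035918-135036167 for Krt18 (plus strand). Capitals mark matches, on either strand, to 4 short motifs. The first is the TATA box, searched as TATAAA. The second is the binding motif of AP-2 factors, searched as GCCNNNGGC. The others are the GC box bound by Sp1, searched as GGGCGG, and the CCAAT box, whose name spells the letters searched.
Krt5: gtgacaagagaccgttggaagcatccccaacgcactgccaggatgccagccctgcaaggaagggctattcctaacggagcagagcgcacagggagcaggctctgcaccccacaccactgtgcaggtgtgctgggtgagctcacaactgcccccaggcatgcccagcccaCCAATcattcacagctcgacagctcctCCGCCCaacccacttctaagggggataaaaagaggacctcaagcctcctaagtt
Krt8: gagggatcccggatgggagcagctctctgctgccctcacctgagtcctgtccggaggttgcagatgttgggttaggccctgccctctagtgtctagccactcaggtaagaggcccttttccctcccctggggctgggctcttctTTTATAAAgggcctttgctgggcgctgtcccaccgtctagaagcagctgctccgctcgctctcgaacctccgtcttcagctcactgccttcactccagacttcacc
Krt18: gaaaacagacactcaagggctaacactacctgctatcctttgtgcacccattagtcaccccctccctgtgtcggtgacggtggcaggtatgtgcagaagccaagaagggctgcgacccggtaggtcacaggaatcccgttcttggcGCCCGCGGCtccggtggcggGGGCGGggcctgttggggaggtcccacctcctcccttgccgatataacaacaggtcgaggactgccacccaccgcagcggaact
The partners Krt8 and Krt18 shared none of the 4 motifs in these windows. Krt8 held the TATA motif, 104 to 99 bases before the start, overlapped by a reverse-strand match at 106 to 101 bases. Krt18 held the AP-2 motif at 104 to 96 bases and a GC box at 84 to 79 bases. Krt5 held a CCAAT box at 81 to 77 bases and a GC box on the reverse strand at 54 to 49 bases. Among 33469 rat promoters of the same length, the TATA motif occurred in 12.9%, the AP-2 motif in 12.6%, the GC box in 30.5% and the CCAAT box in 34.0%. These matches describe the letters only.

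Intensities are given as log2(intensity + 42.76), where the added constant is the 20th percentile of all values. Differences are on the same log2 scale, with the standard error (SE) from limma and a p-value adjusted over all 11773 genes by the Benjamini-Hochberg method. A gene was called when the adjusted p was under 0.05. A level cannot be set against that of another keratin, since each probe set has its own brightness. In whole tissue, fewer cells of a type and less RNA per cell cannot be told apart.

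Some arrays stood apart, and the keratin results below are given with that in view. The highest intensity was 12280 to 19230 on 35 arrays and 32540 on the third normal tissue. The 99.9th percentile of an array, its signal ceiling, ran from 13.34 to 14.38 on the log2 scale, the highest again on the third normal tissue. Several keratins lay close to this ceiling: Krt19 reached 13.90 on the fifth mutated radiation and MNU cancer, where the ceiling was 13.62. The 3′/5′ ratio of hexokinase, a control for RNA degradation, was 12.3 on the fourth nonmutated MNU cancer and at most 4.66 on every other array. The nonmutated PhIP cancer numbered 2 had a mean of 8.16 over 6 fibroblast markers, against 10.82 to 12.57 in the other cancers.

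Keratins of both compartments were higher in the cancers than in normal mammary tissue. With limma, 6 of the 8 members were called higher in the 33 cancers and 0 were called lower: Krt5 and Krt15 of the basal set, and Krt7, Krt8, Krt18 and Krt19 of the luminal set. Of all genes tested, 18% were called higher and 16.3% lower. The median difference was 0.45 over the 8 keratins and 0.02 over all genes. Krt7 (3.70-fold) and Krt15 (3.11-fold) differed most, and the remaining 4 called keratins differed by 1.31- to 1.70-fold.

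**Figure D1:**
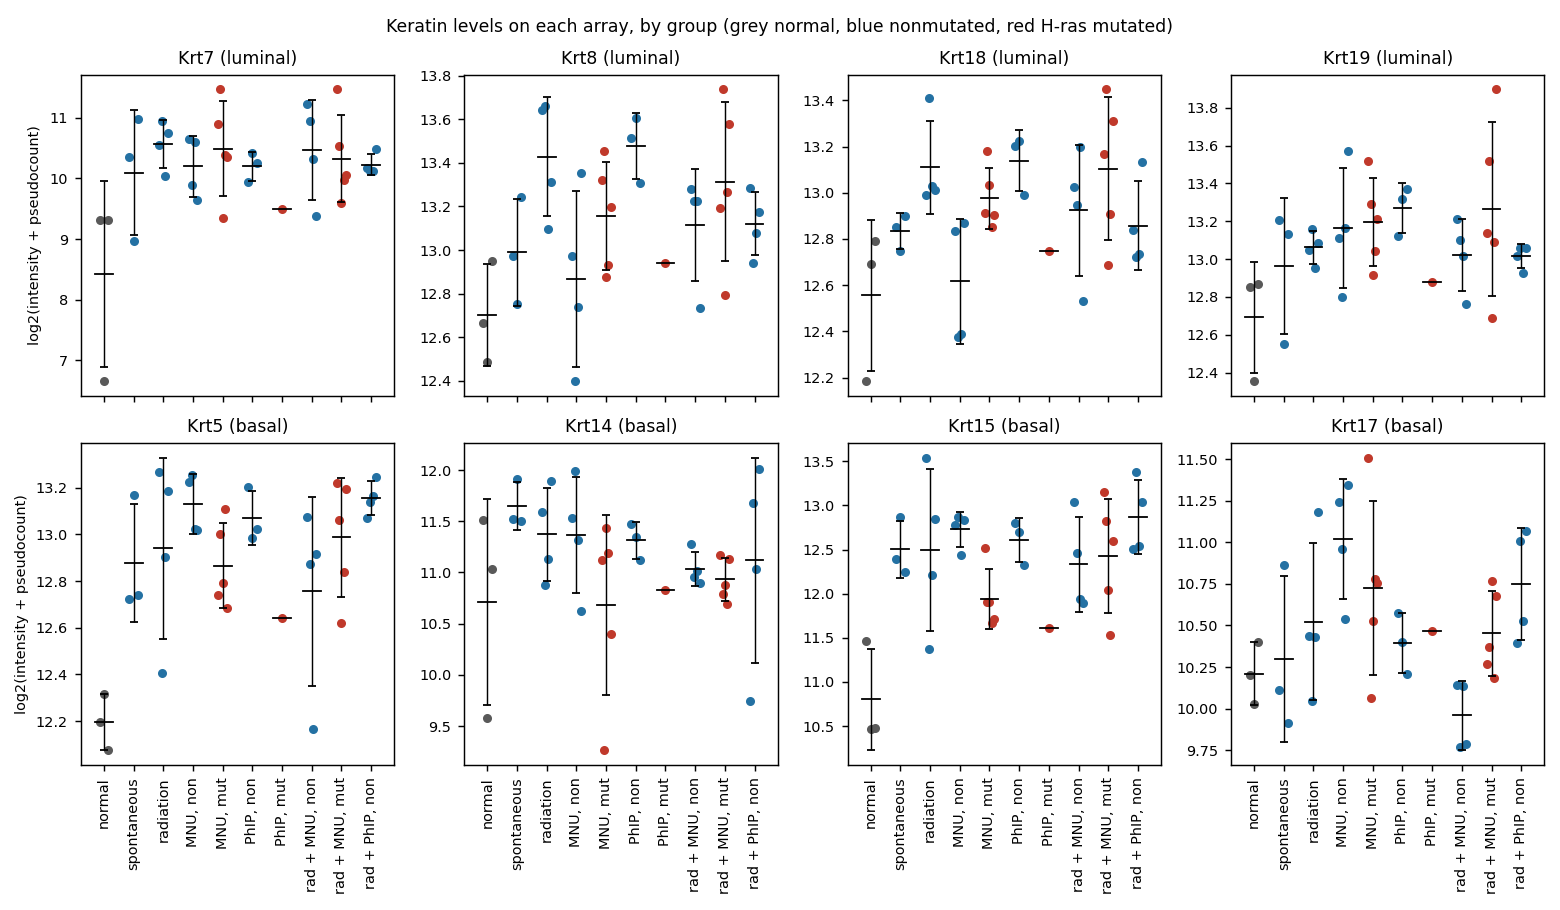
Level of each keratin on all 36 arrays as log2(intensity + pseudocount), by group. Points are arrays (grey normal tissue, blue nonmutated and red H-ras mutated cancers), and bars are the group mean ± SD. The panels have separate scales. The 3 normal tissues sit at the bottom for Krt5 (12.08 to 12.32) and Krt15 (10.46 to 11.46), and the second normal tissue sits apart at 6.65 for Krt7.

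Krt15, a basal keratin that pairs with Krt5, was at 11.46, 10.46 and 10.48 in the 3 normal tissues. In the 33 cancers its lowest, median and highest values were 11.38, 12.51 and 13.54. All cancers but 1 lay above every normal tissue, the exception being the second radiation cancer at 11.38. The cancers exceeded normal tissue by 1.64 ± 0.30 (SE; limma, adjusted p = 0.00013).

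Krt5, the type II keratin of basal cells, was at 12.20, 12.32 and 12.08 in normal tissue and at 12.16, 13.02 and 13.27 (lowest, median and highest) in the cancers. Again 32 of 33 cancers lay above all normal tissues, with the third nonmutated radiation and MNU cancer below 2 of them. The difference was 0.76 ± 0.15 (limma, adjusted p = 0.000225).

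Krt7, a type II keratin of glandular and ductal epithelium, was at 9.31, 6.65 and 9.32 in normal tissue and at 8.97, 10.35 and 11.47 (lowest, median and highest) in the cancers. The second normal tissue was far below the other two, and its raw intensity of 57.92 was under the filter value of 125.8. The second spontaneous cancer was the only cancer not above all normal tissues. The difference was 1.89 ± 0.43 (limma, adjusted p = 0.0013).

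The luminal pair and Krt19 had smaller differences. Krt8 was at 12.67, 12.49 and 12.95 in normal tissue and at 12.40 to 13.74 (median 13.22) in the cancers, 0.47 ± 0.17 higher (adjusted p = 0.0269). Its type I partner Krt18 was at 12.18, 12.69 and 12.79 in normal tissue and at 12.38 to 13.45 (median 12.91) in the cancers, 0.39 ± 0.14 higher (adjusted p = 0.0328). Krt19, a luminal type I keratin, was at 12.86, 12.35 and 12.87 in normal tissue and at 12.55 to 13.90 (median 13.10) in the cancers, 0.43 ± 0.16 higher (adjusted p = 0.0429). Here the groups overlapped: 24 cancers for Krt8, 25 for Krt18 and 29 for Krt19 lay above every normal tissue. No keratin had all 33 cancers above all 3 normal tissues (0 of 8), which held for 3.94% of all genes.

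The remaining pair, Krt14 and Krt17, are type I keratins of basal and myoepithelial cells, and neither was called. Krt14 was at 11.51, 9.58 and 11.04 in normal tissue and at 9.27 to 12.01 (median 11.13) in the cancers, a difference of 0.42 ± 0.36 (95% confidence interval −0.32 to 1.16; adjusted p = 0.382). Krt17 was at 10.20, 10.02 and 10.40 in normal tissue and at 9.77 to 11.51 (median 10.47) in the cancers, a difference of 0.32 ± 0.22 (interval −0.12 to 0.76; adjusted p = 0.258). Krt5 was therefore called higher in the cancers while its classical basal partner Krt14 was not, and whether the 2 differences differ was not tested.

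**Figure D2:**
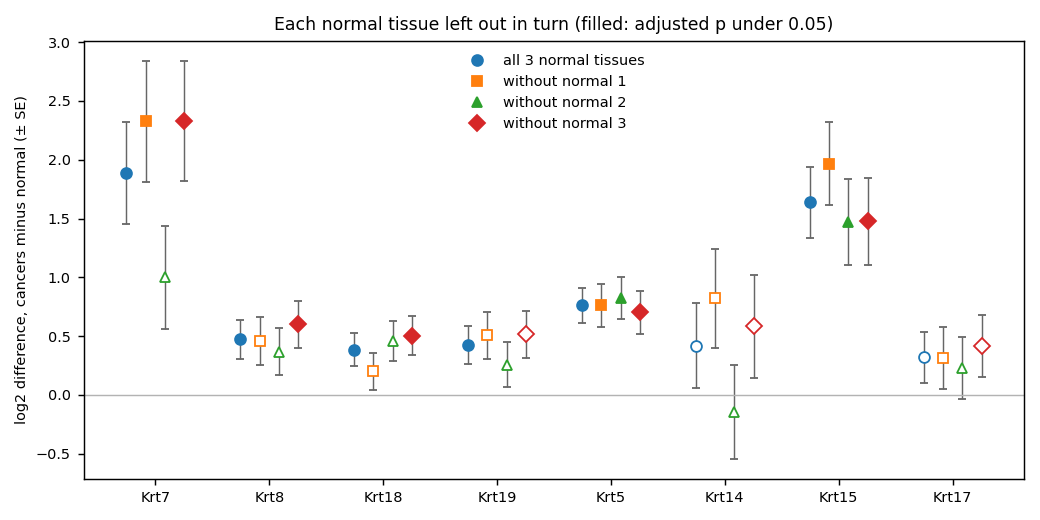
Difference between cancers and normal tissue (log2, ± SE from limma) for each keratin, with all 3 normal tissues and with each one left out. Filled symbols have an adjusted p under 0.05. Krt5 and Krt15 stay filled throughout, and Krt7 falls to 1.00 and becomes open without the second normal tissue.

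With only 3 normal tissues, each of them weighed on these values. Krt5 and Krt15 were called in each of the 36 fits that left out 1 array. Without the second normal tissue, 2 of the 8 keratins were called. Krt7 then differed by 1.00 (adjusted p = 0.0984), against 2.33 without the first and 2.33 without the third, and over all 36 such fits its adjusted p ran from 0.000699 to 0.0984. Without the first normal tissue the calls of Krt8 (0.46, adjusted p = 0.0934), Krt18 (0.20, adjusted p = 0.37) and Krt19 (0.51, adjusted p = 0.056) were lost. The calls of these 3 were lost without the second as well, at 0.37 for Krt8, 0.46 for Krt18 and 0.26 for Krt19 (adjusted p = 0.184, 0.0526 and 0.347), and that of Krt19 also without the third (0.52, adjusted p = 0.0598). Krt19 further missed the threshold without the nonmutated PhIP cancer numbered 3 (0.42, adjusted p = 0.0517) or 4 (0.42, adjusted p = 0.0503). Krt14 changed sign without the second normal tissue, to −0.14. Over the 36 fits the adjusted p ran from 0.0151 to 0.184 for Krt8, from 0.021 to 0.37 for Krt18 and from 0.0238 to 0.347 for Krt19. When each array's signal ceiling was a covariate, a check added after the data were seen, 3 keratins were called, Krt5, Krt7 and Krt15.

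Markers of other cell types differed along with these values. All 8 adipocyte markers were called lower in the cancers, beside 16.3% of all genes (median of the list −4.63). Fabp4, a fatty acid binding protein, differed by −6.34 and Adipoq, a fat hormone, by −4.52. The mean level of the 8 markers was 12.23, 11.54 and 11.91 in the 3 normal tissues and 6.89 to 8.38 in the cancers. No cancer reached the filter value for Lep (highest 6.415 on the log2 scale) or Cidec (highest 6.765). Both passed it through the normal tissues alone, so their direction was fixed in advance. On average the cancers were also under the filter value for Adipoq (6.91, highest 7.42) and for the further markers Plin1 (7.08, highest 7.64) and Pck1 (7.19, highest 7.67). The 3 normal tissues alone were enough to pass these genes, so their direction was largely fixed in advance. Of 6 macrophage markers 5 fell, such as Cd68 (−1.12), and of 6 fibroblast markers 1 fell, Pdgfra (−1.21). None of the 6 skeletal muscle markers was called. The general epithelial markers Epcam and Cdh1, both cell adhesion molecules, differed by −0.08 ± 0.09 (adjusted p = 0.482) and 0.30 ± 0.11 (adjusted p = 0.0414). Epcam lay close to the signal ceiling, at 13.31, 13.41 and 13.95 in normal tissue and at 13.23 to 13.65 in the cancers. What part cell content had in the keratin differences was not tested.

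Other genes of the 2 compartments did not all move with the keratins. The counts that follow stand beside 18% of all genes called higher and 16.3% called lower. Of 15 luminal genes 6 were higher, including the prolactin receptor Prlr (3.46 ± 0.44, adjusted p = 8.13e-07), the tight junction gene Cldn7 (1.35 ± 0.22, adjusted p = 2.64e-05) and the progesterone receptor Pgr (1.89 ± 0.45, adjusted p = 0.00172). A further 3 were lower, among them the mucin Muc1 (−1.23 ± 0.28, adjusted p = 0.00106), and the median of the list was 0.22. Of 12 basal and myoepithelial genes 3 were higher: the basal transcription factor Tp63 (1.37 ± 0.23), the laminin chain Lamb3 (1.50 ± 0.22) and the cadherin Cdh3 (1.25 ± 0.25). The oxytocin receptor Oxtr, a gene of contractile myoepithelium, was lower (−2.99 ± 0.22), and the median of that list was −0.03. In the cancers Oxtr averaged 5.85 (5.58 to 7.55), near the bottom of the scale. It passed the filter mainly through the normal tissues (8.57, 9.04 and 8.93), so its direction was largely fixed in advance. Lamb3, Tp63 and Cdh3 had adjusted p = 6.6e-06, 3.4e-05 and 0.00027, and Oxtr had adjusted p = 2.21e-11.

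Some genes that anchor keratin filaments to the cell membrane were higher, and the rest were not called. Of 15 desmosome and hemidesmosome genes 6 were higher, 0 lower and 9 neither, with a list median of 0.33. Of all genes 18% were higher and 16.3% lower. Desmoplakin (Dsp), which ties keratins to desmosomes, rose by 3.02 ± 0.20 (adjusted p = 2.89e-12), and its relatives envoplakin (Evpl) and periplakin (Ppl) by 1.65 ± 0.24 (adjusted p = 7.72e-06) and 1.42 ± 0.21 (adjusted p = 6.72e-06). The desmosomal membrane protein Perp rose by 1.34 ± 0.17 (adjusted p = 5.42e-07). For Dsp the normal tissues were at 9.62, 8.57 and 9.09 and the cancers at 11.05 to 12.80, so the groups were apart. The integrin Itgb4 of hemidesmosomes differed by −0.00 ± 0.14 (adjusted p = 0.988).

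Among 9 genes known to regulate keratin genes, 4 were higher and 1 lower (list median 0.42), beside 18% and 16.3% of all genes. The AP-2 factor Tfap2b rose most (3.56 ± 0.46, adjusted p = 8.38e-07), Tp63 rose as given above, and the zinc finger factors Klf5 and Klf4 went opposite ways, by 0.74 ± 0.18 (adjusted p = 0.00259) and −1.21 ± 0.19 (adjusted p = 1.19e-05).

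Other keratins and markers of skin were measured beside the members. Of 17 further keratins on the array, 12 passed the filter, while Krt13, Krt24, Krt25, Krt36 and Krt4 did not pass. Of those 12, 1 was called higher and 1 lower (median −0.12), beside 18% and 16.3% of all genes. Krt23 fell (−1.26 ± 0.19, adjusted p = 1.11e-05) and Krt10, a keratin of differentiated epidermis, rose (0.35 ± 0.13, adjusted p = 0.0399). Krt6c, whose near-identical relatives may share its probes, differed by 1.38 ± 0.63 (adjusted p = 0.091). Of 15 epidermal and follicle markers on the array, 9 did not pass the filter, among them Ivl, Dsg1 and Tchh, which mark cornified skin and the hair sheath. The mean of the 6 that passed was 7.67, 7.40 and 7.85 in normal tissue and 7.12 to 7.66 in the cancers, and Sbsn was lower in the cancers (−1.25 ± 0.20, adjusted p = 2.6e-05).

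Each group of cancers with at least 3 arrays was next set against the same 3 normal tissues, so these 8 comparisons share their controls. In limma 32 of the 64 keratin values were called, each of them higher. The number of the 8 keratins called higher was 3 in spontaneous cancers (13% of all genes were called higher there), 5 after radiation (12.2%), 3 in mutated MNU cancers (15.2%) and 4 in nonmutated MNU cancers (11.6%). It was 5 in nonmutated PhIP cancers (12.8%), 6 in mutated (12.3%) and 3 in nonmutated (7.69%) radiation and MNU cancers, and 3 after radiation and PhIP (11.8%).

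**Figure D3:**
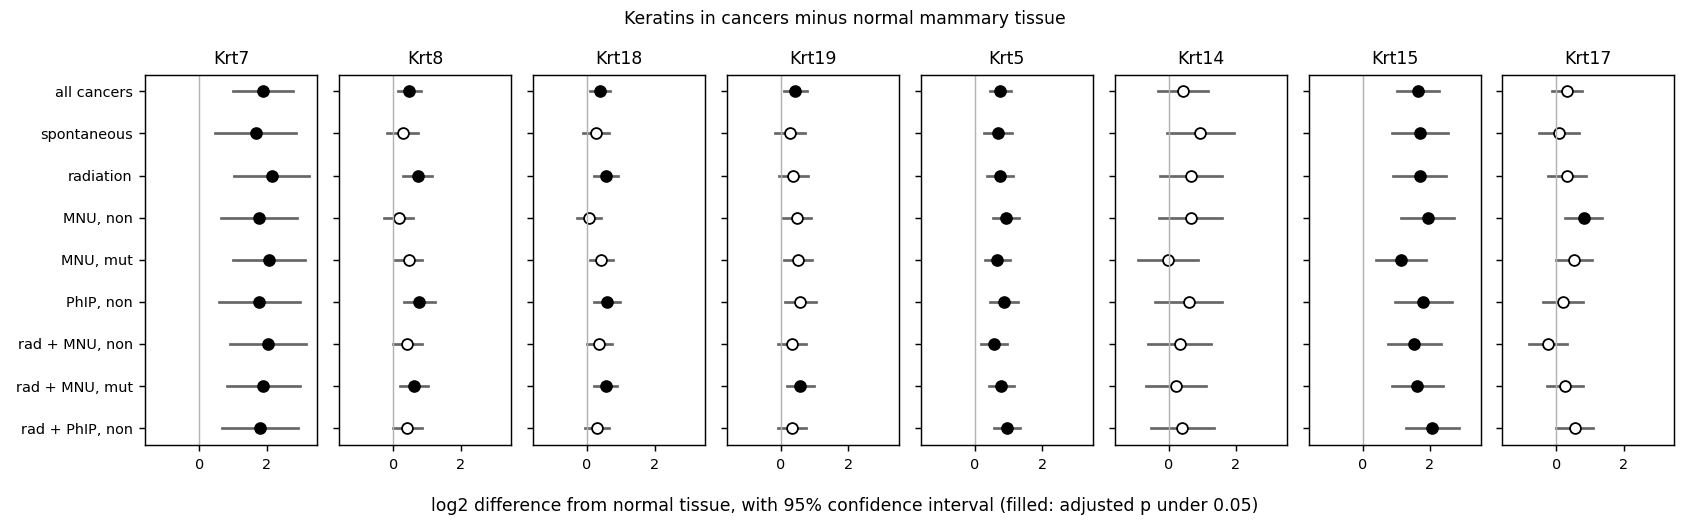
Difference of each cancer group, and of all cancers, from the 3 normal tissues (log2), with 95% confidence intervals from limma. Filled circles have an adjusted p under 0.05. Krt5, Krt7 and Krt15 are filled in all 8 groups, Krt8 and Krt18 in 3 groups each, Krt17 and Krt19 in 1 each, and Krt14 in none.

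Krt5, Krt7 and Krt15 were called in all 8 groups. Krt15 differed by 1.14 (mutated MNU cancers) to 2.06 (radiation and PhIP), Krt7 by 1.67 (spontaneous) to 2.14 (radiation), and Krt5 by 0.56 (nonmutated radiation and MNU) to 0.96 (radiation and PhIP). The highest adjusted p over the groups was 0.0197 for Krt15, 0.0378 for Krt7 and 0.0396 for Krt5. These calls also leaned on the normal tissues: without the second one, Krt7 was called in 0 groups, Krt15 in 7 and Krt5 in 7, and 17 of the 64 values were called in all. Without the third, Krt5 was called in 6 groups and Krt15 in 7, and without the first, Krt5 in 7. With the signal ceiling as a covariate, Krt5 was called in 5 groups, Krt7 in 4 and Krt15 in 6.

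Krt8 and Krt18 were called in the same 3 groups: after radiation (0.73 ± 0.21 and 0.55 ± 0.18), in nonmutated PhIP cancers (0.78 ± 0.22 and 0.58 ± 0.19) and in mutated radiation and MNU cancers (0.61 ± 0.20 and 0.55 ± 0.17). Their adjusted p-values there lay between 0.0126 and 0.0249. Krt19 was called in mutated radiation and MNU cancers (0.57 ± 0.20, adjusted p = 0.0325) and Krt17 in nonmutated MNU cancers (0.81 ± 0.27, adjusted p = 0.0317). Without the second normal tissue Krt8, Krt17 and Krt19 were called in 0 groups and Krt18 in 3. Without the first, Krt8 was called in 2, Krt17 and Krt18 in 0 and Krt19 in 1. Single cancers also decided some of these calls. For Krt7 this held in spontaneous cancers (1.55 without the first and 1.23 without the third), nonmutated MNU cancers (1.62 without the first) and nonmutated PhIP cancers (1.91, 1.67 and 1.75 without those numbered 2, 3 and 4), with adjusted p of 0.0525 to 0.2. For Krt5 it held in spontaneous cancers (0.53 without the second) and nonmutated radiation and MNU cancers (0.45, 0.52 and 0.51 without the first, the second and the fourth), and for Krt15 in mutated MNU cancers (1.00 without the first).

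For Krt8 and Krt18 the calls in nonmutated PhIP cancers were lost without the cancer numbered 3 (0.71 and 0.54), and that of Krt18 also without the one numbered 2 (0.55, adjusted p = 0.0866), the cancer low in fibroblast markers. Without that cancer Krt8 differed by 0.76 (adjusted p = 0.0476). In mutated radiation and MNU cancers, leaving out the second lost Krt8 (0.51) and Krt19 (0.51) and put Krt18 at 0.46 with an adjusted p of 0.05, and leaving out the fifth lost Krt8 (0.55) and Krt19 (0.41). Krt18 lost its call after radiation without the second cancer (0.45), and Krt17 lost its call in nonmutated MNU cancers without the first (0.74) or the fourth (0.70). Whether one group differed from another was tested directly.

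The order of the groups differed between keratins, and most neighbours in the order were closer than the larger of their SDs. For Krt15 the order ran from radiation and PhIP (12.87 ± 0.42, SD) through nonmutated MNU (12.73 ± 0.20), nonmutated PhIP (12.61 ± 0.25), spontaneous (12.50 ± 0.33), radiation (12.50 ± 0.92) and mutated radiation and MNU (12.43 ± 0.65) to nonmutated radiation and MNU (12.33 ± 0.54), mutated MNU (11.94 ± 0.34), the single mutated PhIP cancer (11.61) and normal tissue (10.80 ± 0.57). The single mutated PhIP cancer has no SD, so its steps were set against the SD of the other group alone. Only the last step, 0.81 from that cancer to normal tissue, exceeded the SD it was set against. The same last step, 0.45, stood out for Krt5, whose cancer groups lay between 12.64 (mutated PhIP) and 13.15 (radiation and PhIP) above normal tissue at 12.20 ± 0.12.

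For Krt7 no step exceeded the larger SD, with radiation highest (10.57 ± 0.39), spontaneous cancers at 10.10 ± 1.03, the mutated PhIP cancer at 9.49 and normal tissue lowest at 8.43 ± 1.54. Krt8 and Krt18 had the same 4 groups at the top: nonmutated PhIP (13.48 ± 0.15 and 13.14 ± 0.13), radiation (13.43 ± 0.27 and 13.11 ± 0.20), mutated radiation and MNU (13.31 ± 0.36 and 13.10 ± 0.31) and mutated MNU (13.16 ± 0.25 and 12.98 ± 0.13). In both, nonmutated MNU cancers were the lowest cancer group, at 12.87 ± 0.40 and 12.62 ± 0.27, just above normal tissue at 12.70 ± 0.23 and 12.56 ± 0.33. For Krt8 no step exceeded the larger SD. For Krt18 only the step of 0.09 from spontaneous cancers (12.83 ± 0.08) to the single mutated PhIP cancer stood out, set against the SD of the spontaneous cancers alone.

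Krt19 ran from nonmutated PhIP (13.27 ± 0.13) and mutated radiation and MNU (13.27 ± 0.46) down to spontaneous cancers (12.96 ± 0.36), mutated PhIP (12.88) and normal tissue (12.69 ± 0.29), with no step beyond the larger SD. Krt14 was highest in spontaneous cancers (11.65 ± 0.23) and lowest in mutated MNU cancers (10.68 ± 0.88), which lay next to normal tissue (10.71 ± 1.01), again with no such step. Krt17 placed normal tissue (10.21 ± 0.19) ninth, with nonmutated radiation and MNU cancers below it at 9.96 ± 0.21, a step of 0.25 that exceeded both SDs.

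H-ras status was compared within the MNU and the radiation and MNU cancers (10 mutated, 8 nonmutated), the 2 differences having equal weight. No keratin was called by limma, and 0% of all genes were (886 genes had an unadjusted p under 0.05). Krt18 came nearest, at 13.04 in mutated and 12.77 in nonmutated cancers (0.27 ± 0.11, unadjusted p = 0.0204, adjusted p = 0.532), followed by its partner Krt8 (0.24 ± 0.13, adjusted p = 0.685). The basal Krt14 and Krt15 were on the other side, at −0.39 ± 0.28 (adjusted p = 0.791) and −0.35 ± 0.24 (adjusted p = 0.779). The 95% intervals were −0.97 to 0.19 for Krt14 and −0.83 to 0.14 for Krt15, so differences of either sign remain possible for them.

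Within MNU cancers alone no keratin and 0% of genes were called (923 genes with an unadjusted p under 0.05). Krt15 was at 12.52, 11.91, 11.90, 11.67 and 11.72 in the 5 mutated and at 12.78, 12.87, 12.44 and 12.84 in the 4 nonmutated cancers. The first mutated cancer fell among the nonmutated ones, and the other mutated cancers were below them. The difference was −0.79 ± 0.34 (unadjusted p = 0.0263, adjusted p = 0.581). Krt18 went the other way, by 0.36 ± 0.16 (unadjusted p = 0.0284, adjusted p = 0.581), with 4 of 5 mutated cancers above all nonmutated ones. The share of all genes that separate as far as Krt15 or Krt18 in groups this small was not counted.

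Within radiation and MNU cancers no keratin and 0% of genes were called (460 genes with an unadjusted p under 0.05). Krt15 differed by 0.10 ± 0.34 there (adjusted p = 1). Krt17 was at 10.27, 10.37, 10.77, 10.19 and 10.68 in mutated and at 10.14, 9.77, 10.14 and 9.79 in nonmutated cancers (0.49 ± 0.24, unadjusted p = 0.0475, adjusted p = 1). Every mutated cancer was above every nonmutated one, but how many of all genes do the same in groups this small was not counted. The difference between the H-ras effects of the 2 treatments was called for no keratin and for 0% of genes (391 genes with an unadjusted p under 0.05). It was largest for Krt15 (0.89 ± 0.48, unadjusted p = 0.0736) and Krt17 (0.79 ± 0.34, unadjusted p = 0.0272), both with an adjusted p of 1.

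Among nonmutated cancers, an F test over the 6 causes called no keratin and 1 gene in all, 0.00849% of those tested (1042 genes had an unadjusted p under 0.05). Krt17 had the largest F of the keratins (4.18, unadjusted p = 0.00556, adjusted p = 0.366), then Krt8 (2.74, adjusted p = 0.536) and Krt18 (2.57, adjusted p = 0.561). As a description over the 9 cancer groups, the share of the variance among the 33 cancers that lay between groups was 45.6% for Krt17, 43.0% for Krt18, 38.3% for Krt8, 32.5% for Krt15, 29.2% for Krt5, 24.8% for Krt14, 19.6% for Krt19 and 12.6% for Krt7. With no difference between groups a share of about 25.0% would be met on average for 9 groups of 33 cancers, and every keratin varied more within than between groups. The SD over the 33 cancers was largest for Krt7, at 0.60. Krt14 (0.58) and Krt15 (0.55) followed, then Krt17 (0.45), Krt8 (0.31), Krt19 (0.26), Krt5 (0.26) and Krt18 (0.26).

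Against the 3 spontaneous cancers, which these 5 comparisons share, no keratin was called in any induced nonmutated group. The share of all genes called was 0.0255% after radiation, 0.0425% after MNU, 0.00849% after PhIP, 0.0764% after radiation and MNU and 0.0255% after radiation and PhIP. Genes with an unadjusted p under 0.05 numbered 598, 983, 633, 1113 and 1209 in that order. Krt8 was at 12.98, 12.75 and 13.24 in spontaneous cancers, at 13.64, 13.66, 13.10 and 13.31 after radiation (0.44 ± 0.21, unadjusted p = 0.0455, adjusted p = 0.967) and at 13.52, 13.60 and 13.31 after PhIP (0.49 ± 0.22, unadjusted p = 0.0381, adjusted p = 0.892). All 3 PhIP cancers and 3 of 4 radiation cancers lay above the spontaneous ones, but the share of all genes that do so was not counted. Krt17 was at 10.11, 10.86 and 9.92 in spontaneous and at 11.24, 10.96, 10.54 and 11.34 in nonmutated MNU cancers (0.72 ± 0.27, unadjusted p = 0.0129, adjusted p = 0.524).

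Krt14 differed from spontaneous cancers by −0.28 to −0.61 in the 5 induced groups, with no call (smallest adjusted p = 0.72). The spontaneous cancers were at 11.52, 11.92 and 11.50, and all 4 radiation and MNU cancers (11.27, 10.96, 11.02 and 10.90) and all 3 PhIP cancers (11.47, 11.34 and 11.12) lay below them. The share of all genes that separate in this way was not counted, and with groups this small such a separation is weak evidence. The 5 differences share the same 3 spontaneous cancers.

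MNU and PhIP were compared in nonmutated cancers, with and without radiation at equal weight. No keratin and 0% of genes were called (996 genes with an unadjusted p under 0.05). Krt8 was at 12.99 after MNU and 13.30 after PhIP, a difference of −0.31 ± 0.14 (unadjusted p = 0.0398, adjusted p = 0.57), and Krt18 differed by −0.23 ± 0.12 (adjusted p = 0.643). Krt15 differed by −0.20 ± 0.26 (adjusted p = 0.877) and Krt14 by −0.02 ± 0.31 (adjusted p = 0.996).

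Radiation was compared with no radiation over 4 backgrounds at equal weight (17 and 15 cancers). No keratin and 0% of genes were called (1166 genes with an unadjusted p under 0.05). The largest keratin difference was −0.19 ± 0.13 for Krt17 (adjusted p = 0.6), with Krt7 at 0.15 ± 0.26, Krt14 at −0.14 ± 0.21 and Krt8 at 0.12 ± 0.10. The 95% intervals of all 8 lay between −0.58 and 0.68, the widest being those of Krt7 (−0.38 to 0.68) and Krt14 (−0.58 to 0.30). For Krt5 and Krt19 the intervals were −0.21 to 0.15 and −0.26 to 0.14.

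Krt17 is given within each background, a choice made after its values were seen. In nonmutated MNU cancers Krt17 was at 11.24, 10.96, 10.54 and 11.34, and with added radiation at 10.14, 9.77, 10.14 and 9.79. The 4 irradiated cancers lay below the 4 others with a gap between them, as did 2.04% of all genes in that direction. The difference was −1.06 ± 0.25 (unadjusted p = 0.000227), and with limma's adjustment over all genes it did not pass the threshold (adjusted p = 0.252). In that background 0% of genes were called, with 927 at an unadjusted p under 0.05. In mutated MNU cancers Krt17 differed by −0.27 ± 0.23 (adjusted p = 0.881; 0% of genes called, 711 unadjusted). In nonmutated PhIP cancers it differed by 0.35 ± 0.27 in the opposite direction (adjusted p = 0.675; 0% called, 1108 unadjusted), and radiation cancers differed from spontaneous ones by 0.23 ± 0.27. The contrast between the nonmutated and mutated MNU backgrounds is the same as the H-ras interaction given above (0.79 ± 0.34, adjusted p = 1), so a difference between these backgrounds was not called.

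RNA quality and cell markers were set beside Krt17 in these groups. The mean log2 3′/5′ ratio of the control transcripts was 0.64, 0.58, 0.61 and 1.66 in the nonmutated MNU cancers and 0.65, 0.56, 0.57 and 0.57 with added radiation. Over the 33 cancers Krt17 had r = 0.56 with this ratio, as a description. The cancers with the highest ratios, the fourth nonmutated MNU (1.66) and the first mutated MNU (0.90), also had the highest Krt17 (11.34 and 11.51). The r without them was not computed. With the ratio as a covariate the Krt17 difference was −0.77 (adjusted p = 0.817, against 0.138 to 0.622 over the fits that left out 1 array). Without the fourth nonmutated MNU cancer, whose ratio was 1.66, the difference was −0.95 ± 0.27 (adjusted p = 0.595). The mean of the 12 basal and myoepithelial genes was 10.39 to 11.16 in the nonmutated MNU cancers and 10.24 to 10.77 with added radiation, and over the 33 cancers Krt17 had r = 0.63 with it. Adipocyte markers averaged 7.26 (6.89 to 7.58) and 7.81 (7.27 to 8.33) in the same groups, with r = −0.51 to Krt17 over the 33 cancers, and macrophage markers 10.32 (10.10 to 10.70) and 10.84 (10.06 to 11.42), with r = −0.20. The part of these cell markers in the Krt17 difference was not tested.

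Across the 33 cancers, 6 of the 28 keratin pairs had an adjusted p under 0.05 (two-sided permutation test with 100000 resamples, Benjamini-Hochberg over the 28 pairs), and all 6 were positive. They comprised 4 of the 6 luminal pairs and 2 of the 6 basal pairs. Pairs within and between the compartments were not tested against each other. None of the 16 pairs of a luminal with a basal keratin passed, and their Pearson r ran from −0.31 to 0.16. No negative correlation passed.

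**Figure D4:**
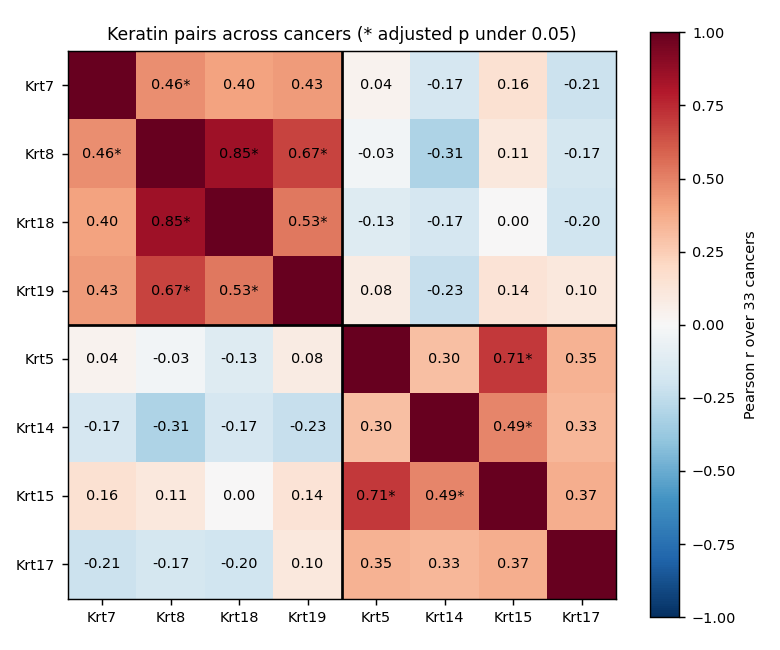
Pearson r for each pair of keratins over the 33 cancers, luminal keratins in the first 4 rows and basal keratins in the last 4. Stars mark an adjusted permutation p under 0.05. All stars lie in the luminal block (Krt8 with Krt18 highest, r = 0.85) or the basal block (Krt5 with Krt15, r = 0.71), and the blocks between them are pale.

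The filament partners Krt8 and Krt18 were the closest pair, with r = 0.85 and Spearman's rho = 0.76 (permutation test, adjusted p = 0.00014 for each, raw p = 1e-05, the smallest that these resamples can give). Without the 2 cancers farthest from the median of Krt8, r was 0.79, and within groups, after each group's mean was removed, it was 0.77. Krt19 varied with Krt8 (r = 0.67, rho = 0.68, adjusted permutation p = 0.000187) and with Krt18 (r = 0.53, rho = 0.50, adjusted permutation p = 0.013). With its direct neighbour in the genome, Krt15, Krt19 had r = 0.14 (adjusted permutation p = 0.601). Krt7 with Krt8 had r = 0.46 and rho = 0.43 (adjusted permutation p = 0.0289). Without the 2 farthest cancers, Krt18 with Krt19 (r = 0.44) and Krt7 with Krt8 (r = 0.44) no longer passed (adjusted permutation p = 0.0629 for each).

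In the basal set Krt5 and Krt15 were closest, with r = 0.71 and rho = 0.77 (adjusted permutation p = 0.00014 for each), 0.70 without the 2 farthest cancers and 0.66 within groups. Krt14 with Krt15 had r = 0.49 and rho = 0.58 (adjusted permutation p = 0.0195 and 0.00273), and within groups r = 0.42 did not pass (adjusted permutation p = 0.052). The classical basal pair Krt5 and Krt14 differed by method: r was 0.30 (adjusted permutation p = 0.193) and rho was 0.56 (adjusted permutation p = 0.00437). The 2 cancers farthest in Krt14 were the second mutated MNU cancer (9.27) and the first radiation and PhIP cancer (9.74), and without them r was 0.52, against 0.34 without the 2 farthest in Krt5. Krt17 had r = 0.37 with Krt15, 0.35 with Krt5 and 0.33 with Krt14, none of which passed (adjusted permutation p = 0.111, 0.131 and 0.147). Within groups Krt17 passed with Krt14 (r = 0.54, adjusted permutation p = 0.00717) and Krt15 (r = 0.47, adjusted permutation p = 0.0277), while Krt17 with Krt5 was at r = 0.17 (adjusted permutation p = 0.53). Within groups 8 pairs passed in all, Krt7 with Krt19 being another that gained (r = 0.46, adjusted permutation p = 0.03).

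**Figure D5:**
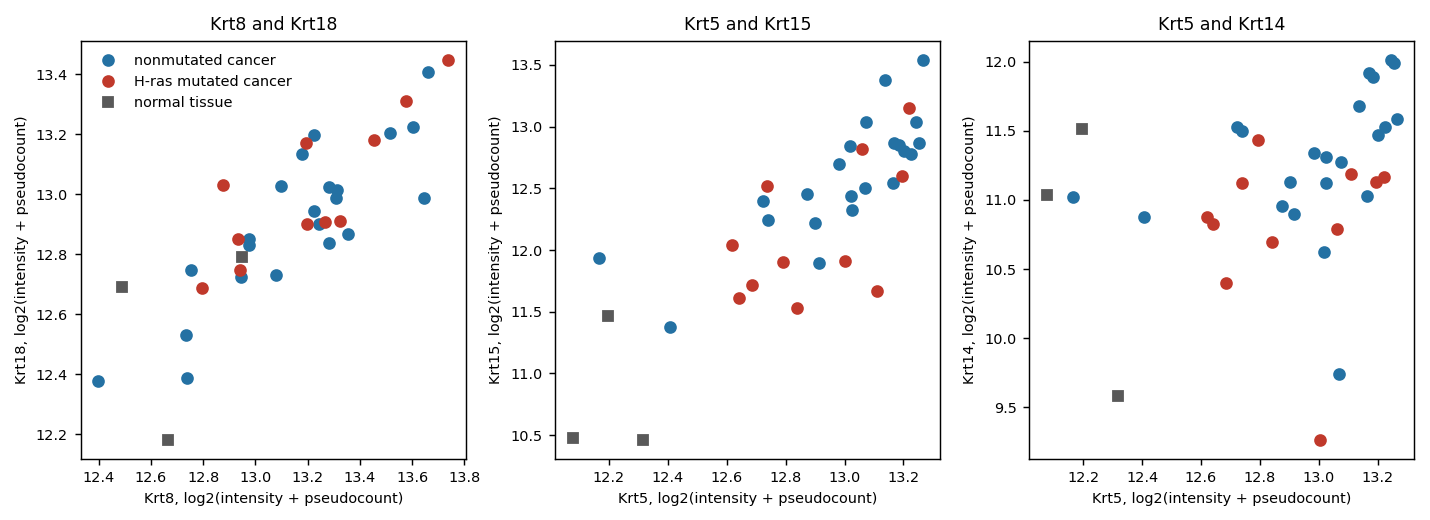
3 keratin pairs on each array, as log2(intensity + pseudocount). Circles are cancers (blue nonmutated, red H-ras mutated) and squares are the normal tissues, which did not enter the correlations. Krt8 with Krt18 and Krt5 with Krt15 follow a line, while 2 cancers at the bottom of the third panel (Krt14 at 9.27 and 9.74) lie far below the other cancers.

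Spearman's rho passed for 9 of the 28 pairs, the further ones being Krt5 with Krt14, Krt7 with Krt19 (rho = 0.53, adjusted permutation p = 0.00845) and Krt5 with Krt17 (rho = 0.42, adjusted permutation p = 0.0489). Probe sets on 1 array share its scaling and RNA quality. With the signal ceiling and the 3′/5′ ratio of each array held constant, a check added after the data were seen, r was 0.86 for Krt8 with Krt18, 0.72 for Krt8 with Krt19 and 0.70 for Krt5 with Krt15. In the other direction, Krt8 with Krt14 had the lowest r, −0.31, at −0.41 within groups.

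Beyond the keratins, the 3 genes nearest to each member over the 33 cancers, by Pearson r among all genes tested outside the keratin family, are given as a description without a test. Krt8 and Krt18 had 2 of their 3 nearest genes in common, the calcium-binding S100a6 (r = 0.81 and 0.80) and the membrane-bending Mtss1 (0.76 and 0.84). Aldh7a1, an aldehyde dehydrogenase, completed the list of Krt8 (0.78), and Wfdc2, a secreted epithelial protein, that of Krt18 (0.77). Krt5 and Krt15 shared Pebp1, a Raf-kinase inhibitor protein (0.77 and 0.76). Krt5 was further nearest to Fam181b (0.75) and Maged2 (0.74), and Krt15 to the glutathione transferase Gstm5 (0.77) and the mitochondrial ADP/ATP carrier Slc25a4 (0.74).

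Krt14 was nearest to Col17a1 (r = 0.70), a collagen of hemidesmosomes, then to the growth factor Mdk (0.69) and the catenin Ctnnd2 (0.65). Krt19 was nearest to Ly6g6c (0.73), the epithelial protease inhibitor Spint1 (0.72) and the uroplakin Upk2 (0.69). Krt7 was nearest to Adss1 (0.79), an enzyme of AMP synthesis, Sorcs2 (0.73) and Plppr2 (0.71). Krt17 was nearest to the calcium channel Ryr3 (0.73), Ap1s3 (0.73) and the focal adhesion protein Tes (0.69). Of the 21 different genes named here as nearest, 14 were called higher in cancers than in normal tissue by limma, beside 18% of all genes. The largest of these differences were those of Fam181b (2.40 ± 0.28, adjusted p = 2.59e-07) and Wfdc2 (2.37 ± 0.26, adjusted p = 6.97e-08).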

How the data were processed

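The authors deposited 1 linear intensity per probe set and array. The summary method, scaling and genome build are not given in the sources used here, although the trimmed mean of every array was 500. Of 31099 probe sets, 20832 had a single symbol, 436 several and 9831 none, and 20764 of the former matched the RefSeq gene table by gene identifier. Values were transformed as log2(intensity + 42.76). Probe sets above 125.8 (the 40th percentile) on at least 3 arrays were kept, and the brightest represented each symbol. This scale understates changes of weak genes.

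The model, run in limma 3.58.1 (R 4.3.3), took the 36 arrays together with a mean for each group, and p-values were adjusted by the Benjamini-Hochberg method over 11773 genes. The scripts were tested on simulated data. Correlations and their permutation tests used NumPy 2.4.6, with ranks from SciPy 1.17.1. The genes named were the 8 keratins, the 3 genes nearest each, other keratins past the threshold, and up to 4 members of each marker list with the smallest adjusted p. Epcam, Cdh1, Itgb4, Fabp4 and Krt6c were added after their values were seen. The keratins and the lists were chosen with earlier results of these data known, and radiation within each background was added after seeing values. Leaving out arrays, other pseudocounts, filters, normalization, a replicate block and covariates were tried. Arrays carry no counts, so precision rests on their number.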

Additional observations from a re-analysis of the deposited data

Results flagged for a closer look

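In 48 sets of 4 or 5 arrays (1 keratin in 1 group), 4 had an array whose gap to its nearest neighbour was large for the range of the set by Dixon's test, where chance gives about 2.4. The first mutated MNU cancer was high for Krt15, at 12.52 against 11.67 to 11.91 in the other 4. The second radiation cancer was high for the luminal type I keratin Krt18, at 13.41 against 12.99 to 13.03. The fourth radiation and PhIP cancer was high for Krt7, at 10.49 against 10.12 to 10.17. The fourth nonmutated radiation and MNU cancer was low for Krt8, at 12.73 against 13.22 to 13.28. The low value of Krt7 in the second normal tissue (6.65 against 9.31 and 9.32) is in a group of 3, which was not tested.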

How the results depend on the processing

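No called keratin difference changed direction in any alternative run. The count of keratins called in cancers against normal tissue was 6 under both other pseudocounts, without the filter, with quantile normalization and with the mean of all probe sets, 7 with RNA quality as a covariate and 3 with the signal ceiling as a covariate. For the groups against normal tissue, 32 of 64 values were called, 39 with quantile normalization, 36 with RNA quality and 20 with the signal ceiling. Leaving out 1 array at a time gave 2 to 6 calls for all cancers and 17 to 35 for the groups, the lowest of each without the second normal tissue. Genes called over the whole array numbered 2121 higher and 1924 lower, and 1454 and 1396 with the signal ceiling.

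With the replicate number as a block (replicate block), 5 keratins were called in all cancers, Krt19 being lost (0.40, adjusted p = 0.0568), and 31 values in the groups. Same-numbered arrays were no more alike than others by this measure: of 122 same-numbered pairs from different groups, 28 had deviations correlated above 0.1 (mean r = 1.84e-05). Of 420 pairs with different numbers, 106 did (mean r = 0.00118). H-ras status, radiation, MNU against PhIP, the induced against the spontaneous cancers and the F test gave 0 called keratins under each alternative run.

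Of 8096 recomputed differences, 7883 kept direction and side of the threshold, 75 lost a call, 29 gained one and 109 uncalled ones changed sign. Not all of these 109 started near 0: Krt14 in all cancers went from 0.42 to −0.145 without the second normal tissue. Of 168 recomputed correlations 154 kept both, and 4 to 8 pairs passed. The 3 normal tissues, keratin signals near the top of the scale and 1 cancer of mutated PhIP limit precision.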
